A study of Mus musculus with 14 samples.

Results

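Histone H3 trimethylated at lysine 4 (H3K4me3) was measured at 55 genes of the synaptic vesicle release machinery and its relatives in mouse cerebral cortex. They are the genes with values in both deposited tables whose symbol belongs to the synaptotagmins, syntaxins, syntaxin-binding proteins, VAMPs, SNAPs, synapsins, RIMs, complexins, Unc13 proteins, SV2 proteins, synaptophysin or Nsf. They make up 55 of 10542 named genes and 59 of 14881 regions. Where a gene had more than 1 region, the region with the highest mean stands for it. By a list of roles, 31 members were counted with the neuronal release machinery. The other 24 were counted with other membrane traffic or a less settled role. The clathrin assembly gene Snap91 is among the 31, and Nsf is among the 24. RefSeq (GRCm38.p6) lists 77 protein-coding symbols that match the same families, and 54 of them have a member region. The remaining member is Stxbp3a, which the files give under an older symbol. Other symbols of these families, Syt1 and Rims3 among them, were not analysed here.

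A vesicle fuses when a SNARE protein on the vesicle (a VAMP) zips together with SNARE proteins on the target membrane (a syntaxin and a SNAP). Munc18 proteins, Munc13 proteins and RIMs prepare the vesicle, complexins and synaptotagmins tie fusion to calcium entry, and Nsf takes the spent complexes apart. Nicotine acts on acetylcholine receptors, many of which sit on nerve terminals in cortex and modulate release. H3K4me3 marks the promoters of active or poised genes, mostly those rich in CpG dinucleotides, and ChIP-seq reads it as the number of sequenced fragments over a region.

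Every sample was cerebral cortex from a C57BL/6J mouse 3 months old after nicotine or, as the control, saccharin solution in development. Exposure confined to the postnatal period gave 4 nicotine and 4 saccharin libraries, and exposure before and after birth gave 3 per treatment. All groups carry the same description of the course: the solution was given to pregnant mice from conception and taken from the offspring at day 21, and the animals were left until day 90. The postnatal-only course is thus known from the group names alone. The dose is not given in the sources used here, whole cortex mixes many cell types, and no label says that replicates were separate animals, so the p-values measure only the spread between these samples. Values are the authors' edgeR-adjusted read counts per region, called signal here, and each exposure was adjusted in its own table. Raw depth is unknown.

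Some postnatal libraries were alike. Relative to counting noise, the variance between libraries 1 and 2 was 1.06 to 1.07, that between libraries 3 and 4 was 1.01 to 1.02, and that of other pairs within a group was 2.31 to 2.66. That noise was estimated as if adjusted values were raw read numbers, so it is approximate. Libraries 1 and 2, and likewise 3 and 4, differed by about that noise, so their mean was taken as 1 sample each, and this leaves n = 2 against 2. These samples are called 1-2 and 3-4 below. The 15 strongest regions of the genome, none of them at a member, took 25.2% of all signal in nicotine sample 1-2 and 18.7% in saccharin sample 3-4. They took 10.04% in nicotine sample 3-4 and 8.47% in saccharin sample 1-2. In the pre- and postnatal libraries they took 19.1%, 49.7% and 41.9% with nicotine (libraries 1, 3 and 4) and 39.9%, 28.8% and 33.1% with saccharin (libraries 1, 2 and 3). The label of the tissue was checked on cortical genes, and Emx1 carried 60.6 signal per kb and Tbr1 54.0 in postnatal saccharin samples. Of 42 markers of neurons, glia, vessels, blood and neighbouring brain regions 23 had a region, with none for microglia, choroid plexus or blood.

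Promoters of the members with the strongest and the weakest mark are shown first, because that contrast is the widest among these genes. They are the 3 highest and the 3 lowest by signal per kb among the members with a single RefSeq promoter window. Each sequence is the 250 bases before the start of transcription, 5′ to 3′ on the strand of the gene, from RefSeq (GRCm38.p6), with every CpG in capitals. The measured regions are on build mm9, so the positions of promoters and regions cannot be laid over each other. The strongest were Stxbp5 (chr10:9901041-9901290, minus strand), Syt9 (chr7:107370540-107370789, plus strand) and Snap91 (chr9:86880709-86880958, minus strand).
Stxbp5: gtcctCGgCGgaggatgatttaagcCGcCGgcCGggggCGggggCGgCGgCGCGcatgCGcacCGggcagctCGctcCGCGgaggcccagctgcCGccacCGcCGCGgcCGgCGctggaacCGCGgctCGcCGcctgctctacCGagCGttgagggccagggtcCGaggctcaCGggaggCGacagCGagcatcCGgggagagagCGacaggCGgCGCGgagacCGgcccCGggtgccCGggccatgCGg
Syt9: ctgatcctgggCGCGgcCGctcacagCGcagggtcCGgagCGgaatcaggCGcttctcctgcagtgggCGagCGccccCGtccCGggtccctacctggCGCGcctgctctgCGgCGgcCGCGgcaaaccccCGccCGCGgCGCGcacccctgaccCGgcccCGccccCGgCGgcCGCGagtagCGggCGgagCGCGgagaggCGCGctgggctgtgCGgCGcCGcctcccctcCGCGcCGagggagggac
Snap91: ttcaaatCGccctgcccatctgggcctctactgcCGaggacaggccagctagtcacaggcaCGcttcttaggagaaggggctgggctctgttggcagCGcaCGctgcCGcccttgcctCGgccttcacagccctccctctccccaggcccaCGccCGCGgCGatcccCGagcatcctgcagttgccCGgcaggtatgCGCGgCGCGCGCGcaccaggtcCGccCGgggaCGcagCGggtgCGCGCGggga
The weakest were Vamp8 (chr6:72390668-72390917, minus strand), Stx11 (chr10:12964260-12964509, minus strand) and Syp (chrX:7638330-7638579, plus strand).
Vamp8: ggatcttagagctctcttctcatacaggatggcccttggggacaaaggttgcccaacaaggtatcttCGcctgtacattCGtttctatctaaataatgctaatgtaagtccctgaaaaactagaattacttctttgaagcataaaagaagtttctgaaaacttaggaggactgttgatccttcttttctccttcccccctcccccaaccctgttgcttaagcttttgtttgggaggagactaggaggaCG
Stx11: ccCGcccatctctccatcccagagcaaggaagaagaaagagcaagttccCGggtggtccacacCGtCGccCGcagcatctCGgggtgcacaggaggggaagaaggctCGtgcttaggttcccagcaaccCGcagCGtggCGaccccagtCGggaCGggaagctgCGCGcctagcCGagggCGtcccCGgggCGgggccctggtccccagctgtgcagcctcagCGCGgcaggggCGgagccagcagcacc
Syp: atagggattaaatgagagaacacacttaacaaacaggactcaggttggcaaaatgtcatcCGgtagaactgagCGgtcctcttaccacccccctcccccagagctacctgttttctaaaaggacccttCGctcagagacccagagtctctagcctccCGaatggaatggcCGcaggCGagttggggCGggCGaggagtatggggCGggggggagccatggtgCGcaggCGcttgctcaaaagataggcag
The 3 strong promoters hold 40, 40 and 26 CpGs in these bases, and their regions carried 172, 165 and 144 signal per kb in postnatal saccharin samples. The 3 weak ones hold 3, 21 and 11 CpGs, and their regions carried 11.7, 17 and 17.7 signal per kb. Stx11 departs from this order, with many CpGs and a weak mark. Syp lies on chromosome X, and its level was ranked with autosomal genes without allowance for the number of X copies.

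Promoter windows of 300 bases, 250 before and 50 after the start, were at hand for 41 of the 55 members. They held a median of 22 CpGs, from 5 to 49, against a median of 21 over 7467 genes with a region. Across the 41 members the CpG number and the signal per kb had a Spearman correlation of 0.193, against 0.453 across the 7467 genes. These are descriptions over genes that share their libraries, with no test. Members with few CpGs whose mark was nevertheless above the 25th percentile of genes include Sv2b (5.25, a mean over 4 windows), Stx3 (8), Cplx2 (9) and Stx7 (10.5, over 2 windows). Short motifs were searched in the same windows on both strands, and no motif searched contains another. The GC box GGGCGG was in 78.0% of the 41 members and in 72.2% of the 7467 genes, and TATAAA was in 7.32% and 8.69%. The cyclic AMP response element TGACGTCA was found in 1 member, Syn1 (2.44% of members and 3.75% of genes). CCGGAAG, bound by ETS factors, was found in 1 member, Stxbp2 (2.44% of members and 17.5% of genes). CAGCACC, a piece of the longer REST site, was found in 6 members (14.6%, against 9.44% of genes). A match is a string of letters and no evidence of binding.

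The level of H3K4me3 differed widely among the members. In postnatal saccharin samples the median over members was 50.4 signal per kb, from 11.7 at Vamp8 to 179 at Vamp3, and the median over all genes was 61.1. Of the 55 members, 10 lay above the 75th percentile of genes and 18 below the 25th. The member regions had a median width of 1709 bp, against 1657 bp for all genes. The order of the members was nearly the same in both tables, with a Spearman correlation of 0.962 between their saccharin levels and of 0.965 across all genes.

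**Figure D1:**
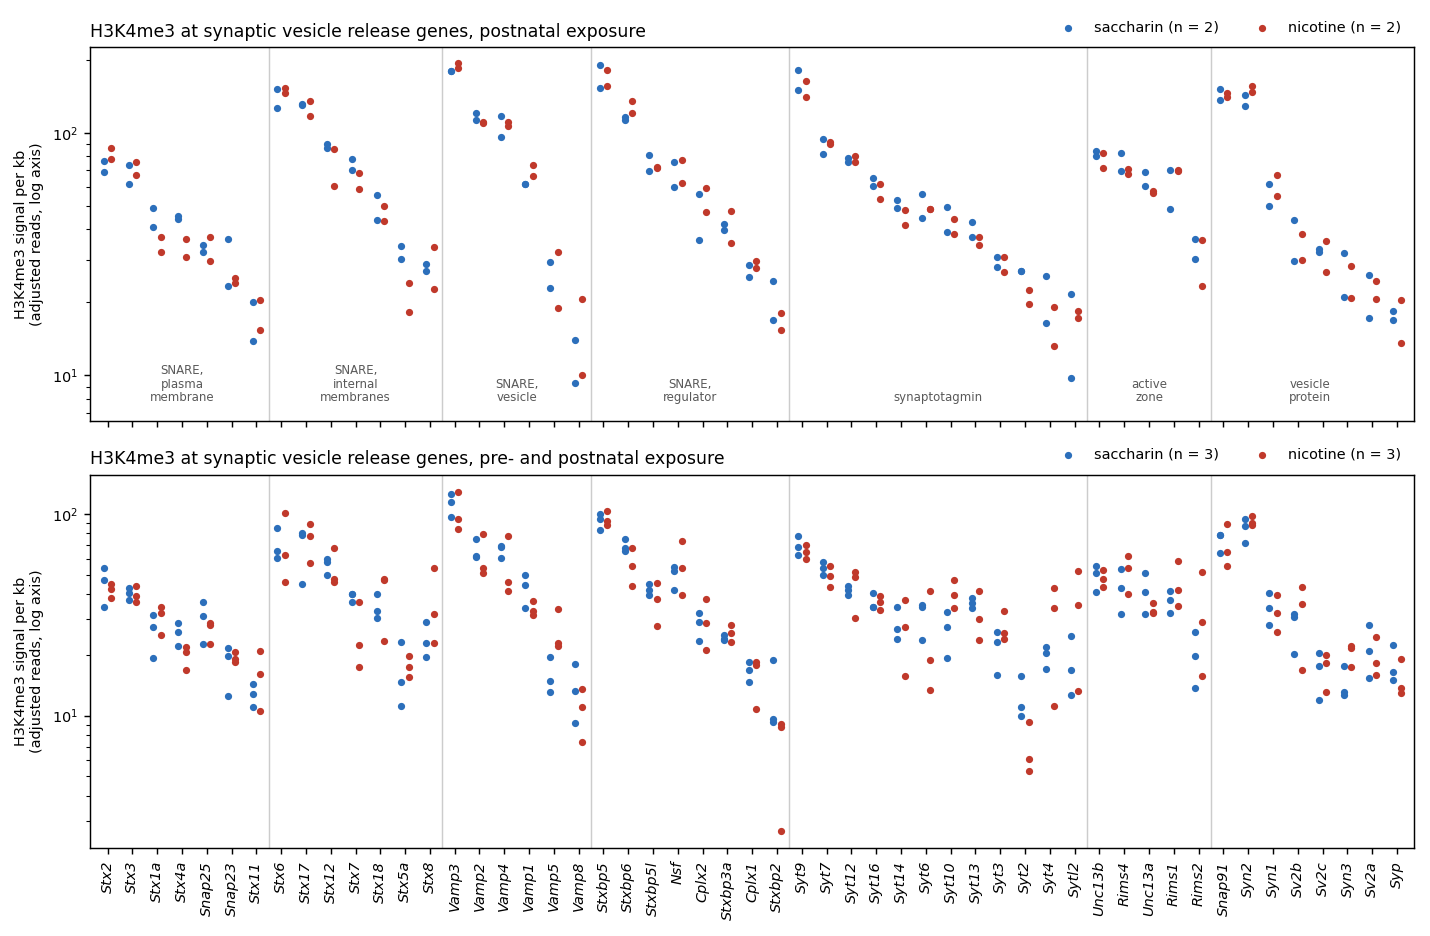
H3K4me3 signal per kb (adjusted reads, log axis) at 53 members, grouped by role and ordered by level within a role, in postnatal samples (top, n = 2 per group) and pre- and postnatal samples (bottom, n = 3 per group). Each point is 1 sample, saccharin in blue and nicotine in red. Postnatal saccharin means run from 11.7 at Vamp8 to 179 at Vamp3, and the colours interleave at most members.

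The SNAREs of the plasma membrane were marked at middling to low levels per kb. Stx2 carried 72.5 signal per kb and Stx3 67.4, and both encode syntaxins used in many tissues. The neuronal syntaxin Stx1a, which forms the target side of synaptic fusion together with Snap25, carried 44.9 signal per kb, close to the 44.7 of Stx4a, a widely used syntaxin. Snap25 itself carried 33.4 signal per kb and its widely expressed relative Snap23 carried 30.0. Stx11, known from the secretory granules of immune cells, had the lowest level of this group.

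Syntaxins of internal membranes covered the range from strong to weak. Stx6, of the trans-Golgi network and endosomes, carried 139 signal per kb, and Stx17, a syntaxin of autophagosomes, 131. The endosomal syntaxins Stx12 and Stx7 carried 87.9 and 74.1, and Stx18, of the endoplasmic reticulum, 49.6. The Golgi syntaxin Stx5a and the late endosomal Stx8 carried 32.1 and 27.8.

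Among the vesicle SNAREs the highest level belonged to Vamp3, or cellubrevin, which serves recycling vesicles in most cells, with 179 signal per kb. Vamp2, the main VAMP of forebrain synaptic vesicles, carried 117, Vamp4 of the trans-Golgi network 106.6 and Vamp1, the other synaptic VAMP, 61.4. Vamp5, known from muscle, carried 26.1 and Vamp8, of endosomes and secretory granules, 11.7. The Vamp5 and Vamp8 regions lie 8.957 kb apart on chromosome 6 and were the weakest of the vesicle SNAREs.

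Regulators of SNARE assembly were led by Stxbp5, or tomosyn, which binds syntaxins in place of a VAMP, with 172 signal per kb. Stxbp6, or amisyn, carried 114 and Stxbp5l, the second tomosyn, 75.4. The Munc18 genes Stxbp3a and Stxbp2 carried 40.9 and 20.6. The ATPase gene Nsf carried 67.9. Complexins, which clamp and promote fusion, carried less than Nsf, with 46.1 at Cplx2 and 27.0 at Cplx1.

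Synaptotagmins, membrane proteins whose C2 domains bind calcium in several of them, also ranged from strong to weak. Syt9, a calcium sensor of release, carried 165 signal per kb. Syt7, a sensor of slow release, carried 88.1 over a region of 2860 bp, the widest of all members. Syt12, Syt16, Syt14, Syt6, Syt10 and Syt13 ran from 77.3 down to 40.0. Syt2, a fast sensor used mainly outside the forebrain, carried 26.9, Syt3 29.5 and Syt4, which lacks calcium binding in its first C2 domain, 21.0. Sytl2, a synaptotagmin-like partner of Rab27, carried 15.7.

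At the active zone, Unc13b (Munc13-2) carried 82.2 signal per kb and Unc13a (Munc13-1), the main priming factor of cortical synapses, 64.7. Of the RIM genes, Rims4 carried 76.2. Rims1 and Rims2, which encode scaffolds that tether vesicles near calcium channels, carried 59.4 and 33.4. Among vesicle proteins, Snap91 (AP180, a clathrin assembly protein) carried 144 and Syn2 136. The other synapsins, which tie vesicles into a reserve pool, carried 55.6 at Syn1 and 26.6 at Syn3. The transporter-like SV2 proteins carried 36.5 at Sv2b, 32.8 at Sv2c and 21.6 at Sv2a, and synaptophysin, an abundant vesicle protein, 17.7 at Syp.

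A wide region usually carried a high level per kb, with a Spearman correlation of 0.548 across all genes and 0.343 across the 55 members. Against this trend, 4 members were wider than the 75th percentile of genes and yet below the 25th percentile of signal per kb: Snap25, Sv2a, Syp and Syt4. That is 4 of 55, while 156 of all 10542 genes (1.48%) fell in the same corner. No test was made of this count, because the corner was looked at with the values known. Snap25 had a region of 2342 bp (chromosome 2, 136538948 to 136541290 on mm9) and 33.4 signal per kb. Sv2a had 2731 bp (chromosome 3, 95984609 to 95987340) and 21.6 signal per kb, and Syp had 2151 bp (chromosome X, 7215052 to 7217203) and 17.7. The percentiles pool chromosome X with the autosomes, with no allowance for the number of X copies. Whether Syp would stay in this corner with such an allowance was not tested. Snap25, Sv2a and Syp encode proteins that are abundant at synapses. Syt4, with 2258 bp and 21.0 signal per kb, was not counted with the neuronal release machinery. At the opposite corner, wide and above the 75th percentile of signal per kb, stood Snap91, Stxbp5 and Vamp2, 3 of 55 against 10.9% of genes. All 3 were counted with the neuronal release machinery. The narrowest regions were those of Vamp8 (940 bp), Stxbp2 (1090 bp), Syt6 (1101 bp), Syt2 (1128 bp) and Vamp5 (1195 bp).

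**Figure D2:**
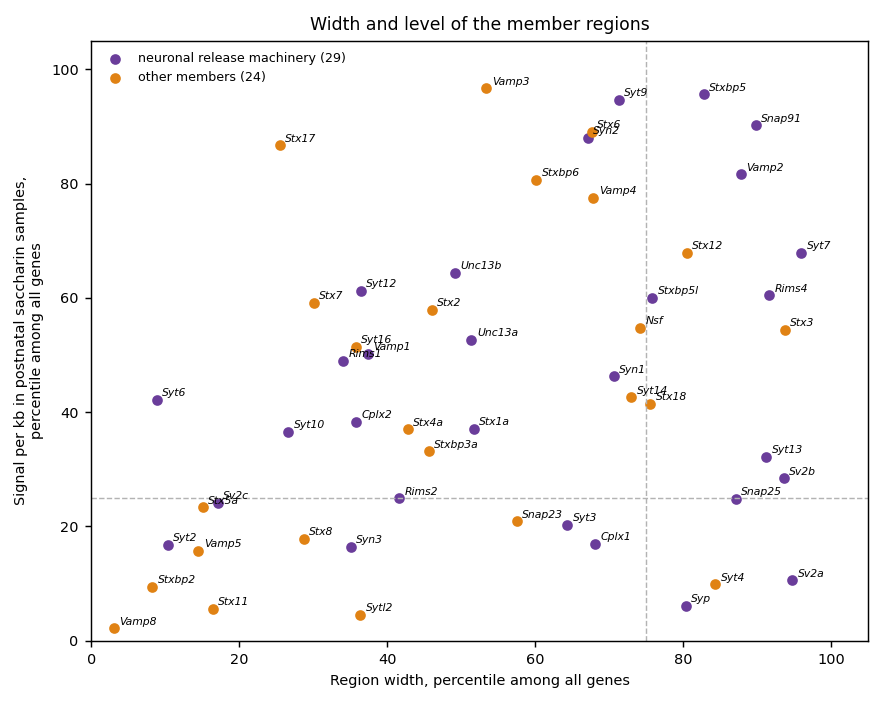
Region width (x, percentile among all genes) against H3K4me3 signal per kb in postnatal saccharin samples (y, percentile among all genes) for 53 members, 29 of the neuronal release machinery and 24 others. Each point is a gene, and dashed lines mark the 75th percentile of width and the 25th of signal. Snap25, Sv2a, Syp and Syt4 sit in the lower right corner, and Snap91, Stxbp5 and Vamp2 in the upper right.

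A second region was listed for 4 members, and the one with the lower mean is called the second here. Unc13b had 82.2 signal per kb at the first region (chromosome 4, 43071123 to 43072769) and 12.7 at the second (43221904 to 43223252), 149.135 kb away. Unc13a had 64.7 (chromosome 8, 74194530 to 74196204) and 33.3 (74152595 to 74153913), 40.617 kb apart. Rims2 had 33.4 (chromosome 15, 39490701 to 39492252) and 16.0 (39223749 to 39225076), 265.625 kb apart. Syn3 had 26.6 (chromosome 10, 85763007 to 85764473) and 22.1 (85960701 to 85961941), 196.228 kb apart, and in pre- and postnatal saccharin samples 14.5 and 15.9. These levels are in postnatal saccharin samples unless stated. Where these regions lie relative to exons and introns was not analysed here.

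The first comparison set nicotine against saccharin after postnatal exposure, and asked whether release genes of the adult cortex carried a different mark. No member passed the test. Of the 55 members 0 passed an adjusted p of 0.05, in limma with Benjamini-Hochberg adjustment over 14873 regions (background 0.0%, with 0 regions called), and all had an adjusted p of 1.00. At an unadjusted p under 0.05 there were 0 of 55, against 281 regions or 1.89% of all. The median log2 difference, nicotine minus saccharin, was -0.06 over the 55 members (22 higher, 33 lower) and -0.00065 over all genes. In 16 of the 55 the samples of the 2 groups did not overlap, which is 29.1% of members and 29.1% of all regions. Nicotine lay above in 6 of them (background 15.0%) and below in 10 (background 14.0%). The members' differences ran from -0.59 to 0.31.

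Snap25 had a signal of 75.6 and 80.7 in saccharin samples 1-2 and 3-4 and of 86.9 and 69.1 in nicotine samples, a log2 difference of -0.01 ± 0.19 (SE; 95% interval -0.40 to 0.38). The nicotine values lie on both sides of the saccharin values. Vamp2 had 285 and 266 with saccharin and 259 and 262 with nicotine (-0.08 ± 0.11, interval -0.30 to 0.15). Its groups did not overlap, with 262 as the highest nicotine value and 266 as the lowest saccharin value. At both genes the interval includes 0 and differences to either side of it.

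The lowest p-values on the lower side all belonged to syntaxins. Stx12 had 186 and 193 with saccharin and 130 and 185 with nicotine (-0.29 ± 0.15, limma adjusted p = 1.00). Nicotine sample 1-2 alone was far below the rest, and leaving it out brought the difference to -0.04. Stx4a had 69.0 and 71.2 against 48.0 and 57.3 (-0.41 ± 0.21), and both nicotine samples were below both saccharin samples. The Golgi gene Stx5a had 41.0 and 36.2 against 28.9 and 22 (-0.59 ± 0.31), again without overlap. Stx1a, the neuronal syntaxin, had 68.4 and 82.1 against 62.6 and 54.2 (-0.36 ± 0.20). With a term for a high or low share of the sample in the 15 strongest regions, these 4 genes had an unadjusted p under 0.05, 4 of 55 or 7.27% of members against 7.15% of regions, and 0 members had an adjusted p under 0.05. Their relatives Stx2 and Stx3 at the plasma membrane had differences of 0.18 and 0.08.

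On the higher side the differences were smaller. Syn2 had 270 and 244 with saccharin and 279 and 294 with nicotine (0.16 ± 0.11). Rims1 had 102 and 70.3 against 103 and 101, so that saccharin sample 3-4 alone stood low (0.26 ± 0.18). Without that sample the difference was -0.0071. Stxbp6 had 201 and 208 against 216 and 242 (0.16 ± 0.11), and Stx2 had 111 and 122 against 139 and 125 (0.18 ± 0.14). Both had nicotine samples above the saccharin samples. By role, 9 of 12 synaptotagmins, 4 of 5 active zone genes, 5 of 8 plasma membrane SNAREs, 5 of 7 SNAREs of internal membranes and 5 of 8 vesicle proteins lay below 0, against 3 of 9 regulators and 2 of 6 vesicle SNAREs, and none of these members passed the test. With quantile normalization 29 of the 55 members lay below 0 in place of 33, with the plasma membrane SNAREs and the vesicle proteins at 4 of 8 each. Between 11 and 16 members changed sign when 1 sample was left out.

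Syt7 had 234 and 270 with saccharin and 262 and 256 with nicotine (0.04 ± 0.11), so that the nicotine samples lay between the saccharin samples. Unc13a had 115 and 101 against 96.6 and 94.9 (-0.17 ± 0.15), and Unc13b had 138 and 132 against 135 and 118 (-0.10 ± 0.14). Only Unc13a of the Munc13 genes had no overlap, and its second region had 48.7 and 39.2 against 28.1 and 55.4, with overlap. Cplx1 had 48.9 and 54.4 against 56.4 and 52.8 (0.08 ± 0.23), and Cplx2 had 82.5 and 53.4 against 69.7 and 87.1 (0.23 ± 0.22). At both complexins the nicotine and saccharin values interleave. Among the vesicle proteins Syn1 had 120 and 97.3 against 107 and 131 (0.13 ± 0.16), Sv2a 46.9 and 71.0 against 56.3 and 67.1 (0.09 ± 0.23) and Syp 39.6 and 36.6 against 43.8 and 29.3 (-0.08 ± 0.29). The strongest member, Vamp3, had 304 and 306 against 314 and 328 (0.07 ± 0.10), and the weakest, Vamp8, had 8.73 and 13.2 against 19.4 and 9.44 (0.31 ± 0.50), with a far wider error.

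**Figure D3:**
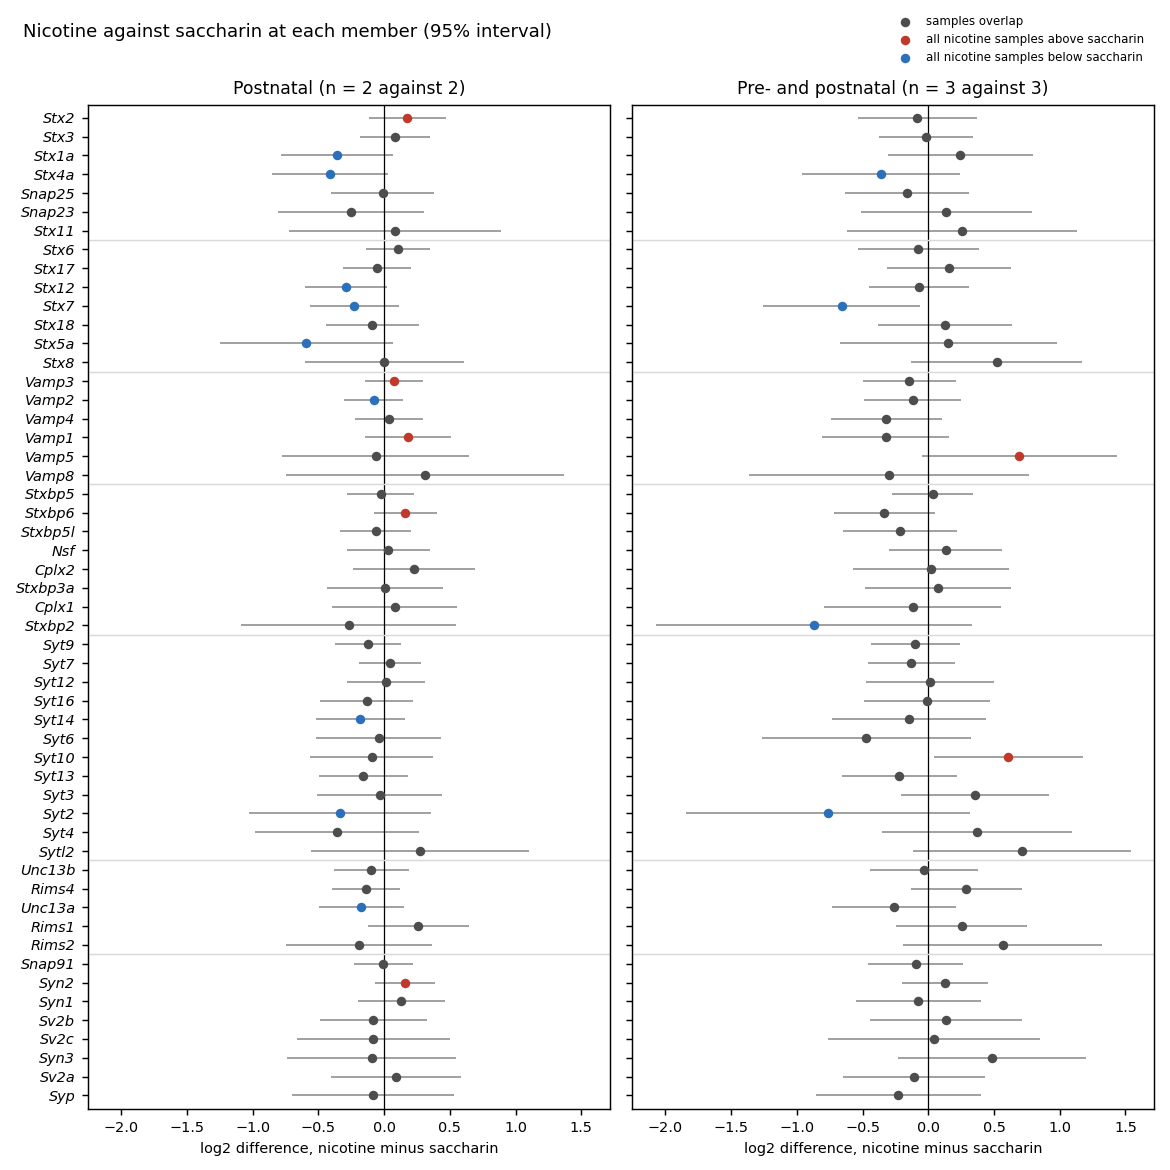
Log2 difference, nicotine minus saccharin, at 53 members after postnatal exposure (left, n = 2 against 2) and after pre- and postnatal exposure (right, n = 3 against 3), with 95% limma intervals. Points are red where all nicotine samples lie above all saccharin samples, blue where all lie below, and grey where they overlap. The intervals cross 0 except at Stx7 and Syt10 on the right, which did not pass the adjusted threshold.

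The second comparison did the same after exposure before and after birth, with its own saccharin controls. Again no member passed the test. Of the 55 members 0 passed the adjusted threshold in limma over 14879 regions (background 0.0%, with 0 regions called), with adjusted p from 0.987 to 0.999. At an unadjusted p under 0.05 there were 2 of 55, Stx7 and Syt10, against 534 regions or 3.59% of all. The median log2 difference over the members was -0.03 (25 higher, 30 lower), and over all genes it was 0.01. The groups did not overlap at 6 of 55 members (10.9%), against 8.95% of regions, with nicotine above at Syt10 and Vamp5 (background 4.49%) and below at Stx4a, Stx7, Stxbp2 and Syt2 (background 4.46%).

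Stx7, of the late endosome, had 56.2, 51.4 and 56.3 in saccharin libraries 1, 2 and 3 and 51.4, 31.6 and 24.5 in nicotine libraries 1, 3 and 4. Nicotine libraries 3 and 4 were low, while library 1 matched the lowest saccharin value to 3 digits. The log2 difference was -0.66 ± 0.29 (limma adjusted p = 0.987). Syt10, a synaptotagmin of calcium-dependent secretion in some neurons, had 37.4, 44.3 and 26.4 with saccharin and 46.4, 54.0 and 63.8 with nicotine (0.61 ± 0.27, limma adjusted p = 0.987). Every nicotine library was above every saccharin library. Neither gene kept an unadjusted p under 0.05 without nicotine library 3 or 4, or without saccharin library 1 or 3, nor did Stx7 without saccharin library 2, and over all left-out libraries the differences ran from -0.95 to -0.43 at Stx7 and from 0.41 to 0.77 at Syt10. After postnatal exposure the same genes differed by -0.23 and -0.09.

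The other members near the top were further from the threshold. Vamp5 had 17.7, 23.4 and 15.7 with saccharin and 26.5, 27.4 and 40.3 with nicotine (0.69 ± 0.36), without overlap. Sytl2 had 25, 36.9 and 18.7 against 19.6, 52.1 and 76.7 (0.71 ± 0.40), with nicotine library 1 among the saccharin values. On the lower side, Stxbp6 had 122, 116 and 135 against 121, 99.0 and 78.5 (-0.34 ± 0.18), and Vamp4 had 116, 133 and 131 against 147, 87.7 and 79.4 (-0.32 ± 0.20). At Vamp4 nicotine library 1 was above every saccharin library and libraries 3 and 4 below, and at Stxbp6 library 1 lay among the saccharin values. Stxbp2, a Munc18 gene, had 10.4, 20.6 and 10.1 against 9.53, 9.91 and 2.92 (-0.87 ± 0.58), some of the lowest values of any member. Stx8 had 40.5, 27.1 and 32.0 against 32.0, 44.3 and 74.7 (0.52 ± 0.31). With 1 library left out in turn, the differences ran from 0.20 to 0.79 at Stx8, from 0.30 to 1.26 at Sytl2, from 0.51 to 0.85 at Vamp5, from -0.49 to -0.18 at Stxbp6, from -0.59 to -0.15 at Vamp4 and from -1.12 to -0.38 at Stxbp2.

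At Snap25, Vamp2, Stx1a, Unc13a and Syp the groups overlapped. Snap25 had 53.2, 85.5 and 73.1 with saccharin and 53.0, 67.5 and 65.8 with nicotine (-0.16 ± 0.23, interval -0.64 to 0.31). Vamp2 had 144, 177 and 145 against 187, 128 and 121 (-0.12 ± 0.18). Stx1a, at which both postnatal nicotine samples were lower, had 32.3, 46.3 and 52.6 with saccharin and 54.0, 58.2 and 42.2 with nicotine here (0.24 ± 0.27). Unc13a had 85.2, 53.4 and 68.3 against 60.7, 54.5 and 54.0 (-0.26 ± 0.23). Syp had 35.4, 48.3 and 32.2 against 29.3, 27.9 and 41.3 (-0.23 ± 0.30).

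The remaining core genes also overlapped between the groups, apart from Syt2. Syn1 had 55.2, 66.6 and 79.4 with saccharin and 77.8, 50.9 and 62.8 with nicotine (-0.08 ± 0.23), and Syn2 had 136, 179 and 165 against 171, 166 and 185 (0.13 ± 0.16). Syt7 had 164, 153 and 143 against 124, 140 and 158 (-0.13 ± 0.16), and Syt2 had 17.6, 11.3 and 12.4 against 10.5, 6.00 and 6.86 (-0.76 ± 0.52). Syt2 was without overlap at a low level in this table and also lay lower, with 30.3 in both saccharin samples against 22.3 and 25.4, in the postnatal table (-0.34 ± 0.33). Rims2 had 40.5, 30.6 and 21.4 against 24.4, 80.1 and 45.1 (0.57 ± 0.36), and its second region had 13.6, 19.9 and 39.1 against 10.2, 32.2 and 70.8 (0.37). At both Rims2 regions nicotine library 1 was low and another nicotine library was the highest of all 6. By role, 5 of 6 vesicle SNAREs, 7 of 12 synaptotagmins, 5 of 8 plasma membrane SNAREs, 4 of 8 vesicle proteins, 4 of 9 regulators, 3 of 7 SNAREs of internal membranes and 2 of 5 active zone genes lay below 0. With quantile normalization the regulators were at 6 of 9 and the synaptotagmins at 8 of 12, and between 4 and 13 members changed sign when 1 library was left out.

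Nicotine library 1 held the least signal in the 15 strongest regions, and its removal moved the count of members at an unadjusted p under 0.05 from 2 to 12 of 55, against 11.4% of regions. These were Syt4, Sytl2, Rims2, Stx8, Syt10, Sv2b, Stx18 and Vamp5 on the higher side (8 of 55, background 5.99%) and Stx7, Vamp4, Stxbp6 and Syt6 on the lower side (4 of 55, background 5.36%). The largest was Sytl2 at 1.26, then Rims2 at 0.99, Syt4 at 0.95 and Stx7 at -0.95. None of the 12 had an adjusted p under 0.05 (the smallest was 0.132, at Syt4), while 17 regions elsewhere did. The 2 nicotine libraries that remain, 3 and 4, have the highest shares of all 6 libraries, so nicotine and this share cannot be told apart in that fit. With the share as a covariate in all 6 libraries, Stx7 and Syt10 were the 2 members at an unadjusted p under 0.05, as without it, against 4.4% of regions in that fit.

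Whether the nicotine effect differed between the exposures was tested as an interaction over all samples. Of 55 members 0 had an adjusted p under 0.05 (background 0.0%) and 0 had an unadjusted p under 0.05 (background 1.47%). The lowest p belonged to Stxbp6, which was at 0.16 after postnatal and at -0.34 after pre- and postnatal exposure, an interaction of -0.50 ± 0.24. Next was Syt10, with an interaction of 0.70 ± 0.38.

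The precision of these comparisons follows from the spread. Within a group the median SD of a member was 0.16 on the log2 scale in the postnatal samples and 0.31 in the pre- and postnatal ones, against 0.14 and 0.27 over all genes. The median 95% interval of a member reached 0.35 to either side after postnatal exposure, a 1.28-fold change, and 0.51 after pre- and postnatal exposure, a 1.43-fold change. At weak members it was wider, up to 1.06 at Vamp8 and 1.20 at Stxbp2. Differences inside these intervals could not be resolved here, and the absence of a call does not show equal marks.

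The postnatal samples with a high share in the 15 strongest regions (nicotine 1-2 and saccharin 3-4) were also compared with those of a low share (nicotine 3-4 and saccharin 1-2). This split crosses treatment and is not one of the study's groups. With treatment as a term, 881 regions or 5.92% differed at an adjusted p under 0.05, and among members 1 of 55 did. That member was Sv2b, an integral protein of synaptic vesicles. Its signal was 101 and 115 in the samples of high share and 79.2 and 78.2 in those of low share (0.45 ± 0.14, limma adjusted p = 0.0347). In the pre- and postnatal libraries, which the split did not use, Sv2b had 44.3 in nicotine library 1, of the lowest share, 94.7 and 115 in nicotine libraries 3 and 4, and 84.2, 81.8 and 53.2 in saccharin libraries 1, 2 and 3. What the share reflects was not tested.

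At an unadjusted p under 0.05 the split had 12 of 55 members, 21.8% against 19.3% of regions, with 6 higher (background 12.3%) and 6 lower (background 6.98%). On the higher side at a high share were Nsf, Syn3, Syt4, Sytl2 and Vamp8 beside Sv2b. Nsf had 155 and 154 in samples of high share and 125 and 121 in those of low share (0.33 ± 0.12, limma adjusted p = 0.0835). Syt4 had 43.3 and 57.8 against 29.8 and 37.0 (0.58 ± 0.22, limma adjusted p = 0.0875). Syn3 had 41.6 and 47.1 against 30.5 and 30.9 (0.51), and Vamp8 had 19.4 and 13.2 against 9.44 and 8.73 (0.76). On the lower side were Cplx2, Stx12, Stxbp5, Syn1, Syt9 and Vamp5. Cplx2 had 69.7 and 53.4 against 87.1 and 82.5 (-0.47, limma adjusted p = 0.059). Stxbp5 had 344 and 339 against 399 and 421 (-0.26 ± 0.10, limma adjusted p = 0.093), and Syn1 had 107 and 97.3 against 131 and 120 (-0.30). At these genes other than Stx12, whose samples of high share were at 130 and 193 against 185 and 186, both samples of high share lay on 1 side of both samples of low share. The split and the level were related, with a Spearman correlation of -0.353 between the difference and the signal per kb across members and of -0.415 across all genes. The postnatal nicotine differences at the same 12 genes ran from -0.36 at Syt4 to 0.31 at Vamp8, with -0.29 at Stx12, 0.28 at Sytl2 and 0.23 at Cplx2, and with 0.03 at Nsf and -0.08 at Sv2b. Whether the differences by share and by nicotine differ in size was not tested. The genes named for the split depend on the scaling. With quantile normalization it had 9 members at an unadjusted p under 0.05, against 15.2% of regions. Sv2b, Nsf, Cplx2, Stxbp5, Syt9 and Vamp5 stayed, and Stx11, Sv2c and Syt7 were new. Syn3, Syt4, Sytl2, Vamp8, Stx12 and Syn1 were no longer among them. In that fit 6 of the 55 members changed sign.

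**Figure D4:**
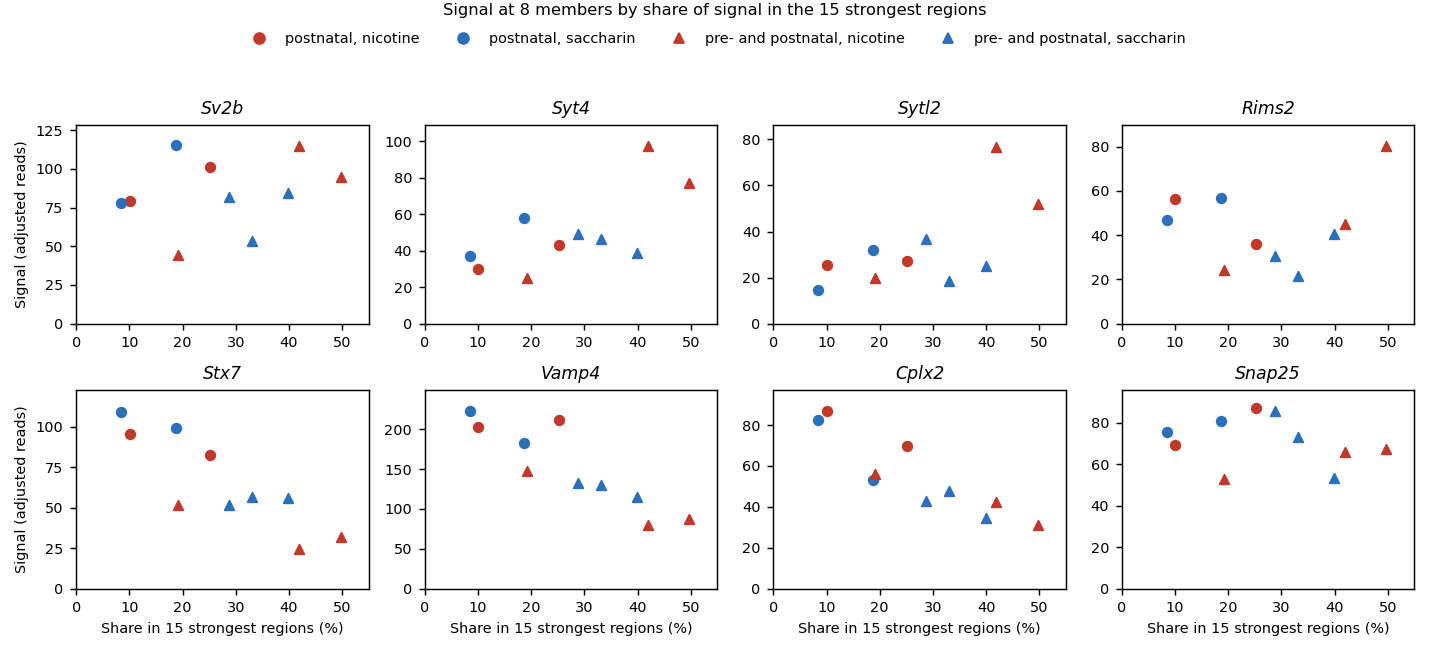
Signal (adjusted reads per region) at 8 members against the percent of all signal in the 15 strongest regions, 1 point per sample: circles are postnatal samples, triangles pre- and postnatal libraries, red nicotine and blue saccharin. The tables were adjusted separately, so circles and triangles are not on 1 scale. Sv2b is at 101 and 115 in the postnatal samples of high share against 79.2 and 78.2 in those of low share, while Snap25 is at 86.9 and 80.7 against 69.1 and 75.6.

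Other genes of the pathway were taken from a list outside these families: active zone scaffolds, priming and recycling factors, further vesicle membrane proteins and endocytic proteins. Of 72 listed genes 67 had a region. After postnatal exposure 2 of the 67 were higher at an unadjusted p under 0.05 and 0 lower, against 0.961% and 0.928% of regions. They were Dnajc5, a chaperone of synaptic vesicles, with 266 ± 11.9 in nicotine and 224 ± 11.9 in saccharin samples (SD, n = 2 each, log2 difference 0.25), and the clathrin adaptor Picalm, with 221 ± 5.2 against 186 ± 15.4 (0.25). After pre- and postnatal exposure 1 was higher and 0 lower, against 1.72% and 1.87%, namely the endocytic scaffold Itsn2 with 334 ± 54.5 against 262 ± 26.2 (SD, n = 3 each, 0.34). The median difference over the 67 genes was -0.0099 and 0.11 in the 2 exposures, with 33 and 47 of them higher (49.3% and 70.1%). Over all genes the medians were -0.00065 and 0.01, with 49.8% and 52.4% higher. None had an adjusted p under 0.05, in limma over all regions. Of the 23 marker genes with a region, 1 was lower after postnatal exposure at an unadjusted p under 0.05 only, Gbx2, against 0.928% of regions. After pre- and postnatal exposure 1 was higher, Camk2a, and 1 lower, Tcf7l2, against 1.72% and 1.87%, again unadjusted only. Gbx2 and Tcf7l2 were the 2 thalamus markers on the list. Both lay below 0 in both exposures, at -0.73 and -0.72 for Gbx2 and at -0.16 and -0.58 for Tcf7l2. The 2 endothelium markers with a region also lay below 0 in both. After pre- and postnatal exposure all 4 interneuron and all 4 striatum markers with a region were lower, but after postnatal exposure 3 and 2 of them were higher. In the former exposure 3 of 4 oligodendrocyte lineage, 2 of 6 excitatory neuron and the 1 astrocyte marker were higher. The part of the marker genes in the members' values was not tested.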

How the data were processed

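H3K4me3 ChIP-seq was done on fixed cortex, per the labels' protocols. The unit is a signal that the authors made by adjusting reads per region with edgeR, per the submitters' processing notes, on build mm9 and with 1 table per exposure. It is not whole numbers. An aligner, a peak caller or a filter is not given in the sources used here. Rows without values, 4322 of 19203 in a table, were left out. Raw depth is unknown, so values have no counting interval, and the check of libraries against counting noise, which took adjusted values as counts, is approximate.

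From these values, log2(value + 1) was fitted with limma 3.58.1 with trend in R 4.3.3, over regions with at least 1 in as many samples as the smaller group holds. Fold changes of weak regions are understated on this scale. P-values are two-sided, with Benjamini-Hochberg adjustment over all tested regions and a threshold of 0.05. Samples were grouped by the labels, each exposure was fitted on its own, and the interaction took differences within a table. The interaction used 1 variance per region for both tables, though their spread differs. The split by the share in regions with a postnatal mean over 3000 had treatment as a term. With 4 samples and 3 terms, its variance came almost wholly from the trend shared by all regions. The same holds for the postnatal nicotine fit with the class of share as a term. Levels are signal divided by region width, compared between genes only per kb. No allowance was made for the number of X copies, which bears on Syn1 and Syp. The fits were tested on simulated data. Other pseudocounts, filters, scalings, blocks and left-out samples were tried. Promoters were matched by symbol to RefSeq, and 41 of 55 members had a window. Python 3.11.15 with matplotlib 3.10.9 drew the figures.

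Members, roles and lists were chosen with earlier results of these data known. The genes named are the core release genes and their widely expressed relatives, the 4 members of lowest p per exposure and direction, the 5 highest and 5 lowest per kb, the 5 widest and narrowest, and those with more than 1 region. The paragraphs on levels by role also name members outside these rules: Stx17, Stxbp5l, Syt3, Syt12, Syt13, Syt14 and Syt16. The members named for the split, for the fit without nicotine library 1 and for the corners of width and level were chosen after their values were seen. Some members and markers enter the fits and counts but are not reported here by name, and the figures plot 53 of the 55 members.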

Additional observations from a re-analysis of the deposited data

How the results depend on the processing

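Pseudocounts of 0.5 and 5, no filter, a mean of at least 20 and a trimmed mean of M values scaling (written out by hand) left 0 regions and 0 members called in both exposures, and members at an unadjusted p under 0.05 at 0 and 2. Shares in parentheses are of all regions tested, at that threshold in the same fit. After postnatal exposure that count was 1 with quantile normalization (2.41%), 2 without trend (2.66%), 1 with all regions of a gene summed (2.4%, of genes) and 4 with all 8 libraries as samples (9.25%), and the class of share as a term gave 4 (7.15%), with 9 regions called. Leaving out 1 sample gave 0 to 2 members (main 0) and 0 to 31 regions called: 31 without nicotine sample 3-4, 7 without 1-2. Each such fit has a single sample in 1 arm, assumed to vary like the other group, so its calls rest on that sample. Rims1 turned to -0.0071 without saccharin sample 3-4. After pre- and postnatal exposure 4 members passed with quantile normalization (3.62%) and 4 without trend (4.52%), with 1 region called that has no gene, and leaving out 1 library gave 0 to 12 members and 0 to 17 regions, both highest without nicotine library 1 (11.4%). Stx7 and Syt10 both lost an unadjusted p under 0.05 without nicotine library 3 or 4, or without saccharin library 1 or 3, and Stx7 without saccharin library 2. The interaction had 4 members at an unadjusted p under 0.05 with all 8 postnatal libraries (6.68%). The split by share had 401 regions and 2 members called with quantile normalization, and 2376 and 8 with all 8 libraries, which counts averaged libraries as separate samples; the cause was not tested otherwise. No alternative called a member for nicotine.

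With replicate number as a block, 1 postnatal region without a gene and 0 members were called, with 1 member (Stx12) at an unadjusted p under 0.05 (0.928%), and 0 regions and 0 members after pre- and postnatal exposure, with 0 at an unadjusted p (1.91%). Whether the numbers pair the samples cannot be told from these values. Deviations of same-numbered samples from their group mean correlated at -0.51 in the averaged postnatal samples. With 2 samples per group, every pair there has that size with either sign. In the pre- and postnatal libraries same-numbered samples correlated at -0.084 and -0.080. A crossed pairing, added after seeing the data and the same split as the class of share, called 9 regions.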
